A study of Hakea laurina with 6 samples.

Results

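The auxin transport and response contigs of Hakea laurina cluster roots are 47 assembled sequences that the authors' annotation ties to the hormone auxin. They were chosen by 2 criteria from the authors' table of contigs that differed between 2 kinds of root. The description had to hold auxin, SAUR, indole-3 or indoleacetic, or the symbol AUX1 or LAX, and the contig had to reach 1 CPM (counts scaled to the size of the library) in all libraries of one root type. Among 7819 annotated rows, 65 carried such a word, no row had to be removed as an F-box protein, and 18 missed the CPM minimum. The 47 are thus 47 of the 4604 annotated rows that reach the minimum, out of 183999 assembled contigs. They match 30 Arabidopsis genes and lie in 37 components of the assembly, a component being a set of contigs that Trinity built from one connected graph of reads. Because the table was itself selected on the comparison of the same libraries, the difference of each contig between the root types is a description here, and where the fit across all contigs placed a member past a threshold, that is stated as part of the description and not as a test of the member.

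RNA was sequenced from 3 libraries of tips of cluster-bearing lateral roots (TCR) and 3 libraries of mature cluster roots (MCR), the stage at which the dense rows of rootlets are fully elongated. The plants were about 3 yr old, had no stated mutation or transgene, and grew in hydroponics with 6 seedlings in 4 L of solution. Both groups shared the same low phosphorus supply, NaH2PO4 at 6.4 µM once in 2 to 3 months. The root types are named by the sample titles, as the study uses them, but the tissue label of every library names the opposite root type, and should those labels hold, each direction below turns round. Nothing in the labels says that libraries came from separate plants, so the spread between libraries may be partly technical.

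Auxin moves from cell to cell in roots through influx carriers of the AUX/LAX family and efflux carriers of the PIN family, and its uneven distribution positions the root meristem and new lateral roots. Inside the nucleus, auxin brings F-box receptors together with Aux/IAA repressors, which are then degraded, and auxin response factors (ARF) become free to switch genes on or off. SAUR genes are early targets linked to cell expansion, and GH3 enzymes and glucosyltransferases take auxin out of the active pool by joining it to amino acids or glucose. All roles given here are those known in Arabidopsis, and each H. laurina contig is named only by its best Arabidopsis match.

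The libraries held 13583740 to 19119494 estimated counts. MCR3 lay closer to TCR3 (Spearman correlation of 0.871 over 49813 contigs) than to MCR1 (0.626) or MCR2 (0.515). It was also closer to TCR1 (0.732) and TCR2 (0.729) than to those MCR libraries, which correlated at 0.791 with each other. TCR3 was closer to MCR3 than to TCR1 (0.829) or TCR2 (0.826), which correlated at 0.953. The labelled root types were set beside marker lists from the authors' table. Its rows were selected on this same comparison, so the lists are descriptive and no separate test of the labels. Of 20 contigs for dividing cells, such as B-type cyclins, CDKB kinases and MCM helicase subunits, 15 passed the threshold as higher in TCR and 0 as higher in MCR. Among the 20, 16 reached the CPM minimum, and 4 had the higher mean in MCR. Their summed level was 830 CPM in TCR1, 816 CPM in TCR2 and 508 CPM in TCR3 against 36.7 to 79.3 CPM in MCR. Of 64 contigs for phosphate uptake and phosphorus shortage, 35 reached the CPM minimum, and 26 passed as higher in MCR and 2 as higher in TCR. Their summed levels were 17700 to 27670 CPM in MCR and 2656 to 2969 CPM in TCR. Beside these counts, 53.2% of the 4604 annotated rows that reach the minimum passed as higher in TCR and 16.9% as higher in MCR. SMB, which marks the root cap, was at 13.2 to 40.4 CPM in TCR and 0.561 to 0.790 CPM in MCR, and the 5 vascular contigs summed to 475 to 528 CPM in TCR and 65.1 to 147 CPM in MCR. That sum was carried by 2 contigs (XCP1 DN5687_c0_g1 and CESA4 DN3340_c1_g1), both called higher in TCR, while the other 3 had the higher mean in MCR and were not called. The summed dividing cell markers and SMB were thus higher in the libraries titled as root tips. The summed phosphorus shortage markers were higher in those titled as mature cluster roots. These markers moved with the auxin contigs below, and their part in those differences was not tested. In RNA from whole root pieces, fewer cells of a type cannot be told apart from less RNA per cell.

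Of the 47 contigs, 35 were higher in TCR and 12 in MCR. The AUX1, PIN2 and PIN4 contigs, all ARF contigs and 5 of 6 Aux/IAA contigs were on the TCR side. On the MCR side were 6 of 8 SAUR-like contigs and 2 contigs described as auxin efflux carriers but without a symbol. A contig was called where edgeR's quasi-likelihood test gave a Benjamini-Hochberg adjusted p below 0.05 over all contigs and the level differed at least 2-fold. By that measure 27 were called higher in TCR and 8 higher in MCR, 35 in all. Of all 49813 contigs tested, 8.39% were called, 5.98% as higher in TCR and 2.40% as higher in MCR, and of the 4604 rows from which the members come, 70.0% were called, 53.2% as higher in TCR and 16.9% as higher in MCR. The balance of directions over all contigs turned in some fits only. With the replicate block 20.1% were called higher in MCR and 15.4% in TCR. MCR also led slightly where all contigs holding a read were kept (2.70% and 2.33%) and without both number-3 libraries (14.3% and 13.8%). TCR led under the other filters, scalings and tests and with any single library left out. Examples are 3.19% in MCR and 4.82% in TCR for RLE size factors, and 2.18% and 8.80% when scaling by library size. The share of the members on each side, 74.5% in TCR and 25.5% in MCR, was that of the 4604 rows (74.5% and 25.5%). Libraries of the root types did not overlap for 43 of the 47 contigs (91.5%), for 93.7% of the 4604 rows and for 31.0% of all contigs tested. Since the rule drew on this comparison, nothing is read from these counts, nor from the counts of each class below, which stand beside the same shares. The median log2 fold change, MCR over TCR, was -2.64 among the 35 contigs and 2.25 among the 12, beside -2.71 and 2.52 among the 4604 rows. Over all contigs tested, which include those with a mean as low as 0.4 CPM in 1 root type, the median was 0.57. Whether this is an offset of the fold-change scale was not tested.

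The count of calls rests on single libraries. Without TCR1 it fell from 35 to 8 (1.07% of all contigs called), without TCR2 to 9 (1.30%) and without MCR2 to 22 (5.49%), whereas it was 26 without MCR1 (5.21%) and 37 without MCR3 (13.4%). Without both number-3 libraries, an alternative chosen after the data were seen, 43 were called (28.1%), and with the replicate number as a block all 47 were called (35.5%). The direction of each of the 47 contigs was the same in all 16 alternative fits. The rule took contigs that differed between these same libraries, which favours a steady direction, so nothing is read from it. In each of the 16 fits 8 contigs were called, a count that was not set beside that of the 4604 rows. Among these 8 were AUX1 DN334_c0_g3, PIN2, IAA8, the IAA16 contigs DN1291_c2_g1 and DN6181_c0_g1, ARF6 DN1357_c0_g6 and the SAUR-like contig DN3873_c0_g1.

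**Figure D1:**
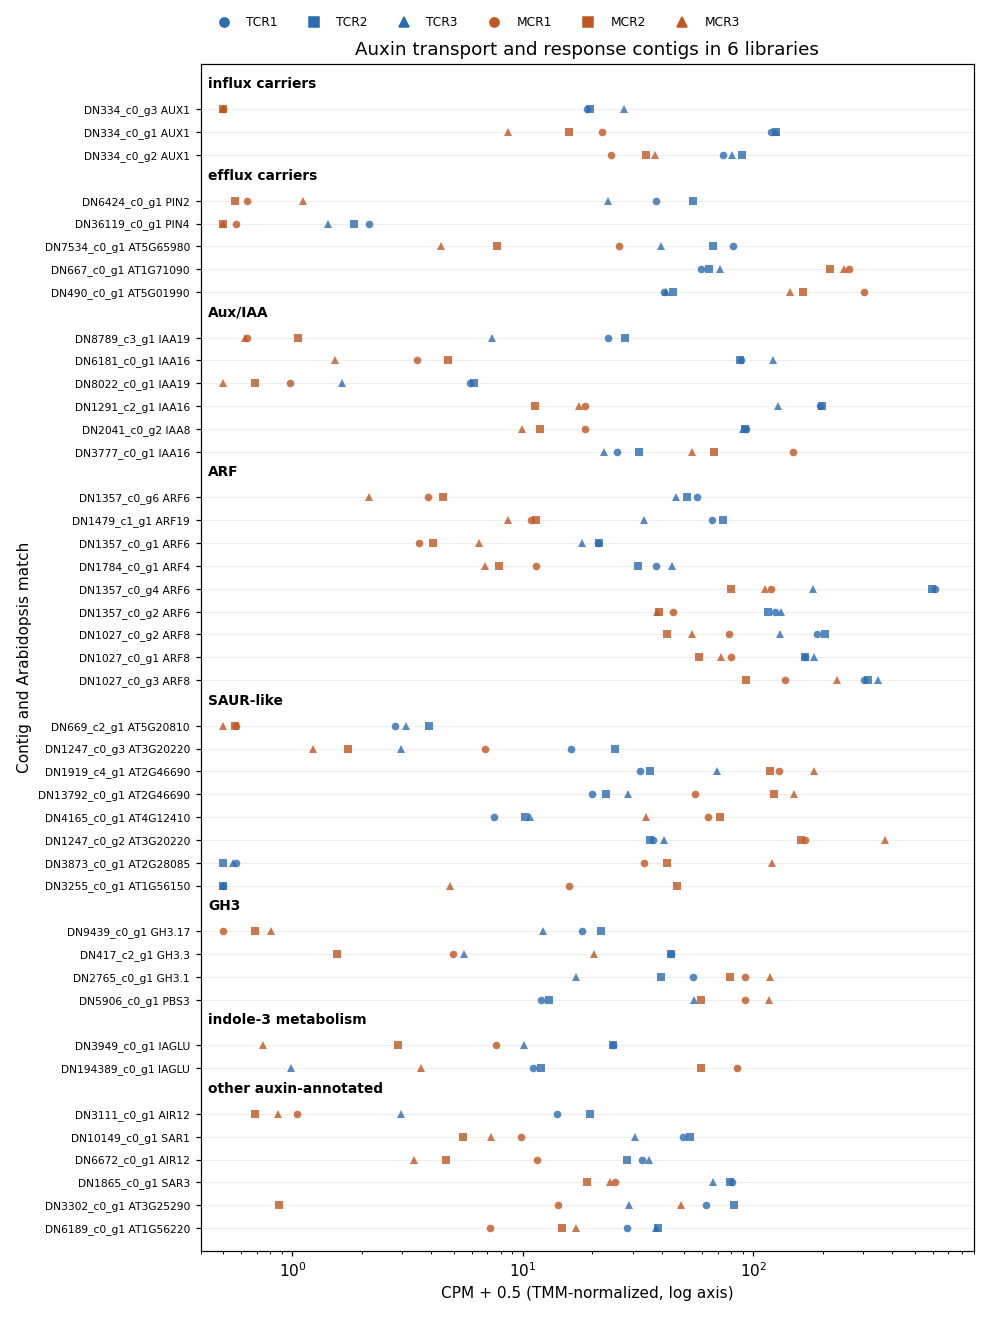
Level of 43 of the 47 contigs in the 6 libraries, as TMM-normalized CPM with 0.5 added on a log axis, grouped by class and ordered within a class by fold change. Blue marks TCR and orange MCR, and circles, squares and triangles stand for libraries 1, 2 and 3; orange lies right of blue for 6 of 8 SAUR-like contigs and left of it for all 9 ARF contigs.

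**Figure D2:**
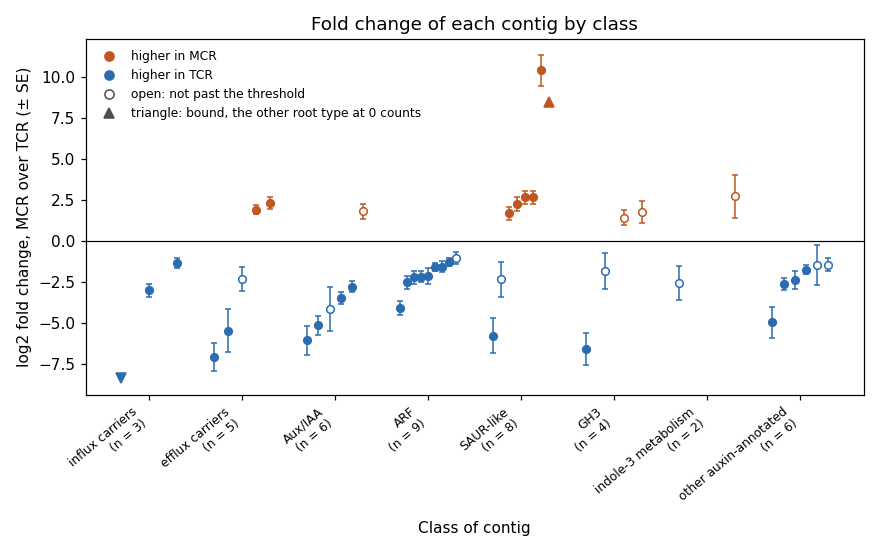
Fitted log2 fold change (MCR over TCR) with its standard error for the same 43 contigs, by class, with n the number of contigs shown. Filled circles passed the threshold and open circles did not, and the triangles are bounds for the 2 contigs with 0 counts in the other root type; the fitted sizes of PIN4, DN3873_c0_g1 and DN669_c2_g1, with 1 or 2 counts there, depend on the prior count. Points above 0 occur among efflux carriers, Aux/IAA, SAUR-like, GH3 and indole-3 metabolism.

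Auxin influx was represented by 3 contigs that match AUX1 (AT2G38120, Arabidopsis chromosome 2, 15973493 to 15976792 in TAIR10), a permease that carries auxin into cells and is known from root gravitropism. All 3 lie in 1 component, and all were higher in TCR. In the sentences that follow, values are TMM-normalized CPM in the order of libraries 1, 2 and 3 of each root type. DN334_c0_g1 stood at 119, 124 and 125 CPM in TCR and at 21.5, 15.4 and 8.09 CPM in MCR. The TCR libraries lay within a few percent of each other and far above every MCR library, with a log2 fold change of -3.03 ± 0.40 (SE). DN334_c0_g2 was at 73.3, 88.5 and 80.2 CPM in TCR and 23.7, 33.7 and 36.7 CPM in MCR, a smaller difference of -1.36 ± 0.28 on the log2 scale. DN334_c0_g3 was at 18.5, 18.9 and 26.8 CPM in TCR, 1061 counts in all, and had no count in any MCR library. Against a floor of 3 counts over the 3 MCR libraries it was at least 337-fold higher in TCR.

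Summed over the 3 contigs, the AUX1 match was at 225 ± 12.2 CPM in TCR and 46.4 ± 2.40 CPM in MCR (SD, n = 3), a ratio of 4.84. The make-up of that sum differed between the root types. DN334_c0_g2 held 34.8%, 38.2% and 34.6% of it in TCR and 52.4%, 68.7% and 82.0% in MCR, so every MCR library drew more of its AUX1 reads from this contig than every TCR library did. In MCR3 the sum was like that of the other MCR libraries (44.8 CPM beside 45.2 and 49.1 CPM), although MCR3 resembles TCR3 over all contigs. The files do not show whether the 3 contigs are separate gene copies, alleles or pieces of one transcript.

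**Figure D3:**
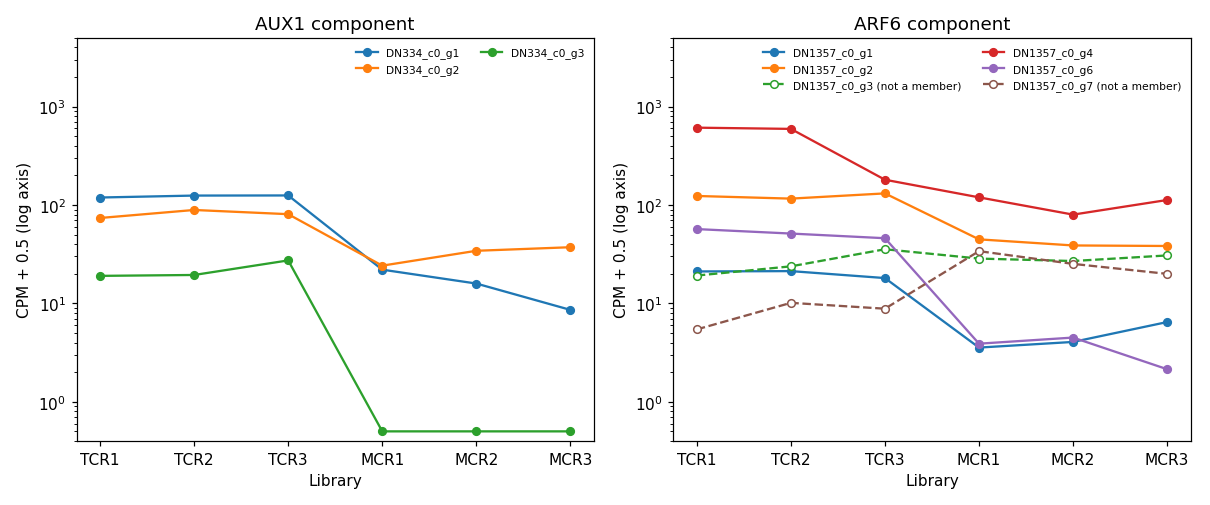
TMM-normalized CPM with 0.5 added, on a log axis, for the contigs of the AUX1 component (left) and the ARF6 component (right) in the 6 libraries, with 1 line per contig. Solid lines are members, and dashed lines with open circles are contigs of the same component outside the authors' table; in the right panel DN1357_c0_g7 goes up from 4.94 to 9.62 CPM in TCR to 19.5 to 33.5 CPM in MCR while the 4 ARF6 contigs go down.

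The annotation describes 9 contigs as auxin efflux carrier family proteins, of which 7 were higher in TCR and 2 in MCR. What each of them carries, and across which membrane, was not tested. PIN2 (DN6424_c0_g1, AT5G57090), which carries auxin shootward through the outer cell layers and serves gravitropism, was at 37.4, 53.9 and 22.9 CPM in TCR. In MCR it was at 0.136, 0.0624 and 0.608 CPM, a log2 fold change of -7.09 ± 0.86. PIN4 (DN36119_c0_g1, AT2G01420), known from the meristem around the quiescent centre, was low throughout. It was at 1.65, 1.35 and 0.925 CPM in TCR, 62 counts in all, and had 1 count in MCR, a ratio of 60.2 with a 95% counting interval of 10.4 to 2414.

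Another 3 contigs are described as auxin efflux carrier family proteins without a symbol, and they went both ways. Their Arabidopsis matches (AT1G71090, AT5G01990 and AT5G65980) have 457, 431 and 395 residues, against 647 for PIN2 and 616 for PIN4. Neither member on the MCR side carries a PIN name. Below the CPM minimum, PIN3 (DN38937_c0_g1) was at 19.5, 16.0 and 0 CPM in MCR and 4.29, 2.94 and 0 CPM in TCR. PIN5 (DN85753_c0_g1), also below it, was at 0.0716, 0.306 and 2.94 CPM in TCR and 0.0679, 0 and 0 CPM in MCR. Neither of these rows was called. DN667_c0_g1 (AT1G71090) was at 258, 215 and 247 CPM in MCR and 58.7, 63.7 and 71.1 CPM in TCR, a log2 fold change of 1.90 ± 0.25. DN490_c0_g1 (AT5G01990) was at 302, 164 and 144 CPM in MCR and 40.3, 44.4 and 41.3 CPM in TCR (2.28 ± 0.36). For both, the TCR libraries lay close together and all MCR libraries were above them. DN7534_c0_g1 (AT5G65980) was at 80.7, 66.0 and 39.3 CPM in TCR and 25.6, 7.24 and 3.89 CPM in MCR, and its log2 fold change of -2.34 ± 0.71 did not pass the threshold.

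Aux/IAA repressors were matched by 6 contigs, 5 of them higher in TCR. IAA16 (AT3G04730) was matched by 3 contigs from 3 components that did not share a direction. DN1291_c2_g1 was at 193, 197 and 128 CPM in TCR and 18.1, 10.7 and 17.1 CPM in MCR (-3.50 ± 0.35). DN6181_c0_g1 was at 87.8, 86.9 and 121 CPM in TCR and 2.99, 4.24 and 1.03 CPM in MCR (-5.16 ± 0.57). The third, DN3777_c0_g1, was the one Aux/IAA contig on the MCR side, at 148, 66.7 and 53.7 CPM in MCR and 25.0, 31.4 and 22.0 CPM in TCR. MCR1 was the high library, the root types did not overlap, and the log2 fold change of 1.78 ± 0.44 missed the threshold. Summed, IAA16 was at 297 ± 23.9 CPM in TCR and 108 ± 53.7 CPM in MCR (SD, n = 3), and DN3777_c0_g1 made up most of the MCR value.

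IAA8 (DN2041_c0_g2, AT2G22670) was the steadiest contig of the class in the root tips, at 92.0, 91.5 and 89.6 CPM in TCR and 18.1, 11.4 and 9.42 CPM in MCR (-2.81 ± 0.33). IAA19 (AT3G15540), an auxin-induced repressor tied to growth curvatures, was matched by 2 contigs. DN8789_c3_g1 was at 22.8, 27.3 and 6.86 CPM in TCR and 0.122 to 0.561 CPM in MCR. DN8022_c0_g1 was at 5.37, 5.64 and 1.14 CPM in TCR and 0 to 0.475 CPM in MCR. In both contigs TCR3 held less than the other TCR libraries, and the second did not pass the threshold.

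**Figure D4:**
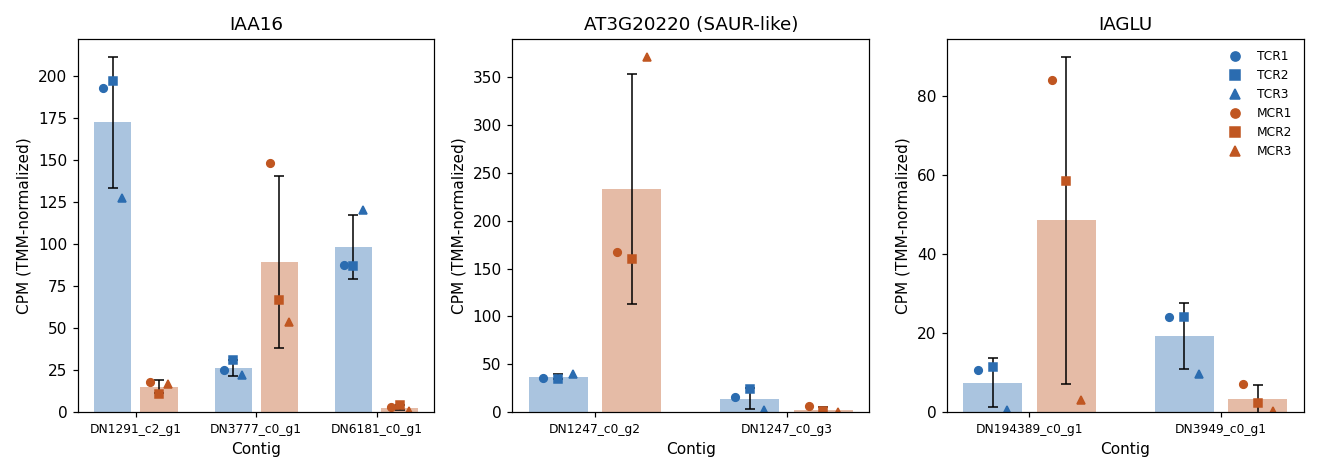
TMM-normalized CPM of the contigs of the 3 Arabidopsis matches whose contigs differed in opposite directions. Bars are means of 3 libraries starting at 0, error bars are SD, and circles, squares and triangles are libraries 1, 2 and 3; for IAA16, DN3777_c0_g1 is at 22.0 to 31.4 CPM in TCR and 53.7 to 148 CPM in MCR, against the direction of the other contigs.

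The response factors were represented by 9 contigs, all higher in TCR, 8 of them past the threshold. Of the 4604 rows, 74.5% were higher in TCR and 53.2% were called so. An ARF11 row below the CPM minimum (DN300529_c0_g1, AT2G46530) had the higher mean in MCR, mostly from MCR2 (4.87 CPM), and was not called. ARF6 (AT1G30330), an activator that acts with ARF8 in adventitious root and flower development, was matched by 4 contigs of 1 component. DN1357_c0_g4 was at 611, 593 and 180 CPM in TCR and 119, 79.3 and 112 CPM in MCR. TCR3 lay nearer to MCR than to the other TCR libraries, and the log2 fold change was -2.16 ± 0.49. The other ARF6 contigs did not show that drop, DN1357_c0_g2 standing at 123, 116 and 131 CPM in TCR and 44.2, 38.3 and 37.8 CPM in MCR (-1.62 ± 0.24). DN1357_c0_g6 was at 56.4, 50.8 and 45.5 CPM in TCR and 3.39, 3.99 and 1.64 CPM in MCR (-4.08 ± 0.42), and DN1357_c0_g1 differed by -2.23 ± 0.40. The 4 ARF6 members of this component thus ranged from 3.07-fold to 16.9-fold higher in TCR.

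ARF8 (AT5G37020) was matched by 3 contigs, also of 1 component, with the smallest differences of the class. DN1027_c0_g3 was at 301, 314 and 347 CPM in TCR and 136, 92.7 and 230 CPM in MCR. MCR3 was the highest MCR library, and the log2 fold change of -1.07 ± 0.37 did not pass the threshold. DN1027_c0_g1 was at 167, 167 and 182 CPM in TCR and 79.4, 57.3 and 72.1 CPM in MCR (-1.31 ± 0.25), and DN1027_c0_g2 differed by -1.59 ± 0.34. Summed, ARF8 was at 667 ± 15.5 CPM in TCR and 280 ± 82.6 CPM in MCR, a ratio of 2.38, and ARF6 at 655 ± 244 CPM and 151 ± 23.0 CPM, a ratio of 4.34 (SD, n = 3). ARF19 (DN1479_c1_g1), an activator known from lateral root initiation, was at 65.5, 73.5 and 33.1 CPM in TCR and 10.4, 10.9 and 8.15 CPM in MCR. ARF4 (DN1784_c0_g1), a repressor-type factor, was at 37.1, 31.2 and 44.0 CPM in TCR and 10.9, 7.36 and 6.32 CPM in MCR.

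Contigs that share a component with a member but stand outside the authors' table were not chosen by the rule, and the table leaves them without a name. There were 8, of which 6 were tested, and being outside a table of changed contigs favours those that did not change. One was called. DN1357_c0_g7, in the ARF6 component, was at 4.94, 9.62 and 8.33 CPM in TCR and 33.5, 24.7 and 19.5 CPM in MCR. All MCR libraries exceeded all TCR libraries, against the direction of the 4 ARF6 contigs, with a log2 fold change of 1.76 ± 0.40 (edgeR quasi-likelihood, adjusted p = 0.0403). It was called in 9 of 16 alternatives, with adjusted p (Benjamini-Hochberg) from 7.7e-06 to 0.199 and log2 fold changes from 1.53 to 2.10, and was not called when TCR1, TCR2, TCR3, MCR1 or MCR2 was left out. DN1357_c0_g3, of the same component, was at 18.7, 23.3 and 35.0 CPM in TCR and 28.0, 26.4 and 30.2 CPM in MCR, so its root types overlapped. The IAA8 component held DN2041_c0_g1 at 43.9, 47.0 and 41.7 CPM in TCR and 45.2, 30.6 and 35.4 CPM in MCR, with a log2 fold change of -0.25 ± 0.27. In the SAUR-like component DN1247_c0, DN1247_c0_g1 was at 13.3, 17.4 and 3.86 CPM in TCR and 5.97, 8.67 and 1.70 CPM in MCR (-1.08 ± 0.76), with overlapping root types, and was not called. Beside ARF4, DN1784_c0_g2 differed by -0.26 ± 0.28 and DN1784_c0_g3 by -0.46 ± 0.42, and neither was called in any alternative.

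SAUR-like contigs were the class in which most members, 6 of 8, were higher in MCR, and all 6 passed the threshold. Of the 4604 rows, 25.5% were higher in MCR and 16.9% were called so. SAUR proteins are small and short-lived, and several are known to promote cell expansion by activating plasma membrane proton pumps. DN1247_c0_g2 (AT3G20220) was at 167, 160 and 371 CPM in MCR and 36.1, 35.2 and 40.4 CPM in TCR (2.64 ± 0.40). Its neighbour in the same component, DN1247_c0_g3, has the same Arabidopsis match and was at 6.38, 1.25 and 0.730 CPM in MCR and 15.6, 24.5 and 2.45 CPM in TCR. There TCR3 fell inside the MCR range, so the root types overlapped, and the log2 fold change of -2.35 ± 1.07 did not pass. DN1247_c0_g2 held 59.0% to 94.3% of the reads of the pair in TCR and 96.3% to 99.8% in MCR.

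AT2G46690 was matched by 2 SAUR-like contigs of separate components, both on the MCR side. DN1919_c4_g1 was at 129, 117 and 182 CPM in MCR and 31.8, 34.9 and 68.7 CPM in TCR (1.66 ± 0.39). DN13792_c0_g1 was at 55.2, 123 and 150 CPM in MCR and 19.4, 22.3 and 28.0 CPM in TCR (2.23 ± 0.42). In both contigs the third library was the highest of its root type. The pair summed to 252 ± 74.9 CPM in MCR and 68.4 ± 24.7 CPM in TCR (SD, n = 3), a ratio of 3.69. DN4165_c0_g1 (AT4G12410) was at 62.8, 71.0 and 33.8 CPM in MCR and 7.01, 9.75 and 10.2 CPM in TCR.

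A pair of SAUR-like contigs was found in MCR and hardly or not at all in TCR. DN3873_c0_g1 (AT2G28085) was at 32.8, 41.5 and 120 CPM in MCR, 3125 counts in all, and had 2 counts in TCR, a ratio of 1610 with a 95% counting interval of 445 to 13300. DN3255_c0_g1 (AT1G56150) was at 15.3, 46.0 and 4.32 CPM in MCR, 1034 counts in all, and had no count in TCR. Against 3 counts over the 3 TCR libraries it was at least 355-fold higher in MCR. MCR3 was the highest library for the first and the lowest for the second. The reverse was seen for DN669_c2_g1 (AT5G20810), which was at 2.29, 3.43 and 2.61 CPM in TCR and had 2 counts in MCR against 136 in TCR, a ratio of 66.0 (17.9 to 550).

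Enzymes of the GH3 family were matched by 4 contigs, 2 on each side, and 1 passed the threshold. GH3.17 (DN9439_c0_g1), which joins auxin to glutamate, was at 17.6, 21.4 and 11.7 CPM in TCR and 0, 0.187 and 0.304 CPM in MCR (-6.60 ± 0.96). GH3.3 (DN417_c2_g1), an auxin-induced auxin-conjugating enzyme, was at 43.5, 43.5 and 5.06 CPM in TCR and 4.48, 1.06 and 19.8 CPM in MCR. Its root types overlapped through both number-3 libraries, and in library 3 alone the level was higher in MCR than in TCR. GH3.1 (DN2765_c0_g1) was at 91.3, 78.2 and 117 CPM in MCR and 54.3, 39.1 and 16.4 CPM in TCR (1.38 ± 0.45, not past the threshold). PBS3 (GH3.12, DN5906_c0_g1) belongs to the family but is known for salicylic acid synthesis, not for auxin. It was at 91.2, 58.5 and 116 CPM in MCR and 11.5, 12.4 and 54.5 CPM in TCR (1.76 ± 0.66, not past the threshold), with TCR3 just below the lowest MCR library.

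IAGLU (AT4G15550), a glucosyltransferase that makes the glucose ester of auxin, was matched by 2 contigs of separate components and opposite direction, and neither passed the threshold. DN194389_c0_g1 was at 83.9, 58.4 and 3.10 CPM in MCR and 10.6, 11.5 and 0.490 CPM in TCR, so that MCR3 lay below TCR1 and TCR2. DN3949_c0_g1 was at 24.0, 24.0 and 9.63 CPM in TCR and 7.13, 2.37 and 0.243 CPM in MCR. In both contigs the third library was the lowest of its root type. Within each replicate number the MCR library was above the TCR library for the first contig and below it for the second.

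The 6 remaining contigs carry auxin in their description without belonging to those families, and all were higher in TCR. SAR3 (DN1865_c0_g1), also named NUP96, was at 80.2, 78.3 and 66.5 CPM in TCR and 24.7, 18.4 and 23.3 CPM in MCR (-1.76 ± 0.27). SAR1 (DN10149_c0_g1), also named NUP160, was at 49.1, 52.3 and 30.0 CPM in TCR and 9.30, 4.99 and 6.75 CPM in MCR (-2.64 ± 0.39). Both are subunits of the nuclear pore that were found through suppression of auxin resistance. AIR12, a membrane-bound cytochrome first isolated as auxin-induced in root cultures, was matched by 2 contigs that summed to 43.4 ± 5.26 CPM in TCR and 6.38 ± 4.56 CPM in MCR (SD, n = 3), a ratio of 6.81. DN3302_c0_g1 (AT3G25290) was at 61.6, 81.4 and 28.4 CPM in TCR and 13.7, 0.374 and 47.8 CPM in MCR, where MCR3 exceeded TCR3. DN6189_c0_g1 (AT1G56220), a dormancy/auxin associated protein, was at 27.7, 38.0 and 37.5 CPM in TCR and 6.72, 14.3 and 16.5 CPM in MCR and did not pass the threshold.

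Within a root type the contigs varied less in TCR than in MCR, but the rule bears on this contrast. It asked for 1 CPM in all libraries of one root type, and 35 of the 47 contigs were higher in TCR. In MCR some of these had few counts, as PIN2 with 13 and GH3.17 with 8, so counting error widens their spread there. No difference in evenness is read from the medians. The median coefficient of variation over the 47 contigs was 22.0% in TCR and 44.7% in MCR, beside 29.4% and 47.0% over the 4604 rows. In TCR it was lowest among the 3 influx carriers (9.45%) and the 9 ARF contigs (10.8%). It was highest there among the 4 GH3 (62.2%) and 2 IAGLU (62.2%) contigs. In MCR it was lowest among the ARF contigs (29.4%) and highest among the IAGLU contigs (96.9%). TCR3 was at least 2-fold below the mean of the other TCR libraries for 11 of the 35 contigs higher in TCR (31.4%, beside 27.5% of such rows), among them ARF6 DN1357_c0_g4 and both IAA19 contigs. The marker sum for dividing cells was also lowest in TCR3 of the TCR libraries, as given above. The MCR library nearest to the TCR mean was MCR1 for 23 contigs, MCR3 for 14 and MCR2 for 10 (48.9%, 29.8% and 21.3%, beside 48.9%, 34.2% and 16.9% of the rows). Compared number by number, all 35 contigs were lower in MCR for libraries 1 and 2 and 33 for library 3, the exceptions being GH3.3 and DN3302_c0_g1, and the other 12 were higher in MCR each time.

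Lists of other genes of the auxin pathway were read from the authors' table, so their members too were selected on this comparison and are described only. They held 45 contigs, of which 30 reached the CPM minimum, and 20 of the 30 were called higher in TCR and 3 higher in MCR, beside the 53.2% and 16.9% of the rows given above. No contig in the table carried the name of an auxin receptor (TIR1 or AFB). Auxin is made from tryptophan by TAA/TAR aminotransferases and YUC monooxygenases. The synthesis list, which also took in nitrilases, tryptophan synthases and CYP79B2 by name, had 15 contigs, 8 of them past the minimum. Of those 8, 7 were higher in TCR, 5 of them called, and 1 was higher in MCR. The contigs below the minimum, among them YUC2 and further YUC8 contigs, had the higher mean in MCR. They had no count in MCR3 and were not called. TAR2 (DN7126_c0_g1) was at 42.1, 35.5 and 23.4 CPM in TCR and 1.90, 0.312 and 2.07 CPM in MCR. YUC8 (DN2032_c0_g1) was at 21.5, 25.1 and 8.06 CPM in TCR and 0.611, 0.125 and 0.304 CPM in MCR. YUC6, NIT4 DN6879_c0_g1 and the tryptophan synthase TSB2 were also called. A second NIT4 contig, DN14732_c0_g1, was at 471, 188 and 499 CPM in MCR and 157, 151 and 153 CPM in TCR and was not called. Whether the NIT4 matches take part in auxin synthesis was not tested, so their levels are not read as auxin synthesis.

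Conjugate hydrolases, which free auxin from amino acids, and glucosyltransferases outside the members gave 4 contigs, of which 3 reached the minimum and 1 was called higher in MCR. ILL2 (DN7787_c0_g1) was at 608, 173 and 116 CPM in MCR and 33.9, 29.4 and 19.3 CPM in TCR (3.44 ± 0.68), and the IAR3 contigs differed by 1.67 ± 0.65 and 2.05 ± 0.76 without passing the threshold. Of 4 contigs for ABCB transporters, which move auxin beside the PIN proteins, the 2 that reached the minimum were called higher in TCR, and the 2 ABCB4 contigs below it had the higher mean in MCR and were not called. ABCB19 (DN2882_c0_g1) was at 349, 379 and 213 CPM in TCR and 48.5, 43.9 and 39.6 CPM in MCR (-2.83 ± 0.32), and ABCB1 (DN2190_c1_g1) differed by -2.68 ± 0.43. Among regulators of PIN placement and activity, the kinase PID was at 13.8, 14.3 and 8.002 CPM in TCR and at 0.0608 to 0.0679 CPM in MCR, both WAG2 contigs were called higher in TCR, and D6PKL2 (DN2065_c1_g5) was called higher in MCR (2.12 ± 0.46).

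The co-repressor TPL (DN1852_c0_g1), which Aux/IAA proteins recruit, was at 125, 114 and 79.4 CPM in TCR and 30.9, 23.5 and 26.6 CPM in MCR (-1.97 ± 0.29). Of the machinery that degrades Aux/IAA proteins, the cullin CUL1 (DN805_c1_g3) differed by -2.13 ± 0.31 and RCE1 (DN7799_c0_g2), which helps to attach RUB to cullins, by 2.71 ± 0.56. Downstream transcription factors of root patterning and branching gave 12 contigs, of which 9 reached the minimum. Of these 9, all but LBD16 DN5063_c0_g1 were called higher in TCR, and so was WOX5 (DN137195_c0_g1), which did not reach it. PLT1, a master regulator of the stem cell niche, was at 38.8, 37.2 and 5.55 CPM in TCR and 0.0608 to 0.0679 CPM in MCR. LBD16 (DN5063_c0_g2), a target of ARF factors in lateral root initiation, was at 15.5, 14.0 and 17.3 CPM in TCR and 0.271, 0.748 and 1.09 CPM in MCR (-4.45 ± 0.62).

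**Figure D5:**
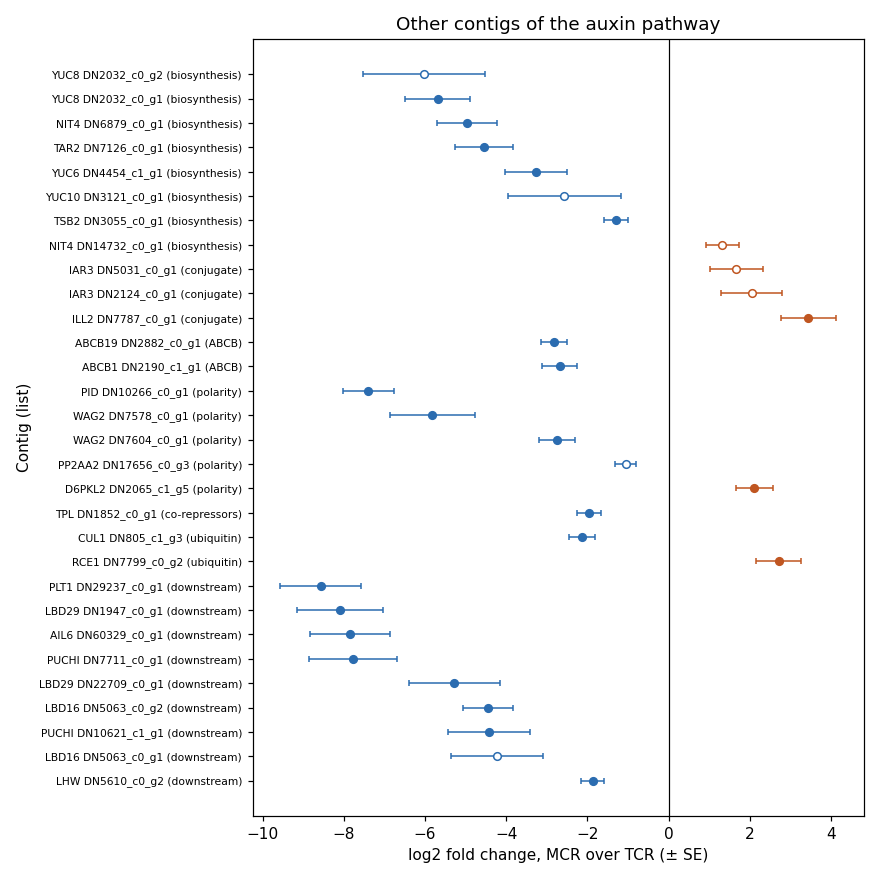
Fitted log2 fold change (MCR over TCR) with its standard error for the 30 contigs of other auxin pathway lists that reached the CPM minimum, with the list in brackets. Filled circles were called and open circles were not; 20 filled circles lie left of 0 and 3 right of it. For 5 of them (WAG2 DN7578_c0_g1, PID, PLT1, LBD29 DN1947_c0_g1 and PUCHI DN7711_c0_g1) MCR had 3 counts or fewer, and the fitted size then depends on the prior count.

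The members just inside the CPM minimum of 1, on the CPM scale of the authors' table, were PIN4, lowest at 1.16 CPM in a TCR library, and IAA19 DN8022_c0_g1, lowest at 1.43 CPM. Just outside were IAA33 (DN28541_c0_g1), lowest at 0.619 CPM in TCR, and a GH3 contig (DN18254_c0_g1, AT1G48660), at 0.145 to 0.217 CPM in TCR and 0.137 CPM in the lowest MCR library. Of the 18 rows that missed the minimum, 16 had the higher mean in MCR, and in 14 of those MCR3 was under 0.2 CPM. In the other 2, DN6198_c0_g1 (AT2G33830) and DN20037_c0_g1 (AT2G17500), MCR3 was the highest library and MCR1 was at or near 0. None of the 18 was called by the quasi-likelihood test, although 12 had an unadjusted p below 0.05, and the edgeR exact test called 3, DESeq2 9, limma-voom 0, the fit with the replicate block 18, the fit on all contigs holding at least 1 read 18 and the fit without MCR3 8. Counts behind the members ran from 62 to 21520 over the libraries of the higher root type, with a median of 2711. CPM values are not scaled to contig length, so levels are compared between libraries and not between contigs.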

How the data were processed

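RNA-Seq was made from 3 TCR and 3 MCR libraries (poly(A) RNA, directional kit, 150 bp paired-end reads). The authors trimmed reads with Trimmomatic 0.39, assembled them with Trinity and quantified with Salmon 1.9.0, and the estimated counts were deposited without normalization. Depth was 13583740 to 19119494 counts per library. How transcripts were summed to contigs, and which test of edgeR 4.0.14 the authors used, is not given in the sources used here. The CPM columns of the authors' deposited table, normalized by the authors with 0.01 CPM added, served only to apply the rule of membership. Another 5 value columns of that table (group means, fold change, p and q) hold the authors' comparison and were not used.

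Estimated counts were rounded to whole numbers. A contig stayed in when its mean reached 0.4 CPM in at least 1 root type (49813 kept, 134186 removed). The comparison used edgeR 4.0.16 in R 4.3.3 (TMM, glmQLFit, glmQLFTest, defaults), with Benjamini-Hochberg adjustment over all contigs, and calls required an absolute log2 fold change of at least 1. The standard error is the log2 fold change divided by the square root of F. The code of the fit was also run on simulated counts, drawn independently for each library. Those counts lack the shared deviation of same-number libraries described below, so they do not show how the fit performs on these data. Sums, shares and intervals were computed with Python 3.11.15, pandas 2.3.3, numpy 2.4.6 and scipy 1.17.1 and drawn with matplotlib 3.10.9. Intervals and floors cover counting error only. The smallest two-sided p of an exact permutation of 3 against 3 libraries is 0.1, so no such test was made.

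Libraries of the same number deviated together from their root type means (Pearson r across 14706 contigs with mean CPM above 5 of 0.336, 0.363 and 0.477 for numbers 1, 2 and 3). Unlike numbers also correlated for TCR2 with MCR1 (0.316) and TCR1 with MCR2 (0.185) and were negative otherwise, so numbers 1 and 2 are told apart less clearly than number 3. Every same-number r exceeded 0.1, but so did those of TCR2 with MCR1 and TCR1 with MCR2, so this mark does not single out same-number pairs. The labels do not say what a number shares. The main fit, which gave the calls and standard errors, did not use the numbers. Blocking on them is given as an alternative.

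Members and lists were chosen with earlier results of these data known. Named members are every member of a class of 5 or fewer and, in larger classes, the 3 with the highest mean CPM in each direction, with the rows at the edge of the CPM minimum. PIN2, the other ARF6 and ARF8 contigs, ARF19, ARF4, IAA19 DN8789_c3_g1, AIR12, AT1G56220 and the SAUR-like contigs DN3873_c0_g1, DN3255_c0_g1 and DN4165_c0_g1 fall outside that rule and were named after their values were seen, as were the pathway contigs. The PIN3, PIN5 and ARF11 rows below the CPM minimum were also named after their values were seen. A tetratricopeptide protein and a protease that share the symbols TPR3 and RCE1 were left out of the pathway lists. Alternatives were 3 other filters, 2 other scalings (library size or RLE), 3 other tests (limma 3.58.1 with voom, DESeq2 1.42.0 and edgeR's exact test), blocking on the replicate number, dropping the fold-change minimum, leaving out libraries, and other CPM minimums of the rule. The values of 4 efflux carrier contigs, which are counted among the members, are not reported here.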

Additional observations from a re-analysis of the deposited data

How the results depend on the processing

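The list of members varied from 45 to 48 contigs under other CPM minimums or the TMM scale. All contigs called (4177) became 9240 with every contig that had a read, 6552 with the edgeR exact test and 9187 with DESeq2. Without both number-3 libraries, an alternative chosen after the data were seen, it became 15868, with 43 members called, 11 of them higher in MCR and 32 in TCR. Pairing by a replicate block gave 17704, and called all 47 members. With each library left out in turn, contigs called ranged from 535 (without TCR1) to 7460 (without MCR3), members called from 8 to 37, those higher in MCR from 1 to 8 and those higher in TCR from 7 to 29. The median log2 fold change of members higher in MCR, 2.25, was 2.53 where 3 libraries had to reach the CPM minimum, 2.59 with filterByExpr, 2.52 with RLE size factors or DESeq2, 2.05 with library size alone and 2.01 to 2.52 with a library left out. That of members higher in TCR, -2.64, was -2.95 to -2.32 with a library left out. RLE size factors put the median of all contigs at 0.84 and library size alone at 0.37, beside 0.57, and no member changed direction. Of the 31 members named by rule, 15 lost the call without TCR1 and 14 without TCR2. Why the calls depend on these libraries was not tested. With 3 libraries a group, a leave-one-out fit rests on 5 libraries.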
